A study of Homo sapiens with 8 samples.

Results

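Transcript levels of TNF receptor superfamily genes were examined in cultured human cells with and without sodium benzoate (SB), a salt used as a food preservative and as a drug. The genes are TNFRSF12A, the gene with the highest rank by rise on the log2(RPKM + 1) scale, and 9 further receptors of the family. Those described were chosen by the presence of a row in the deposited table and by the level and change of each gene between the same 4 control and 4 SB-treated replicates. The differences given below for these receptors are thus descriptions and carry no p-value. Of the 10 listed genes, 8 have a row among the 14526 genes of the table. TNFRSF10A and LTBR have no row and are not described further. The control replicates received no SB, and the SB-treated replicates were kept with 10 mM SB for 24 h. The culture medium, DMEM with serum, was common to both groups. The sample labels name only cultured cells. The paper and the name given to the deposited values state HepG2, a line derived from a human liver carcinoma.

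TNF receptors are cell surface proteins with cysteine-rich repeats on the outside that bind trimeric ligands of the TNF superfamily. Some carry a death domain on the inside, through which FADD or TRADD and caspases are recruited, and others bind TRAF adaptors that lead to NF-kB and JNK signalling. A further class binds ligand without passing on a full signal and is called decoy. TNFRSF12A, also known as Fn14, is the receptor of TWEAK (TNFSF12). It has a short TRAF-binding tail and no death domain, and it is known as a growth factor-inducible gene that is raised in injured or regenerating tissue, the liver included.

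Levels are given as RPKM, reads scaled to the length of the gene and to the size of the library, so that they can be compared between genes. The whole reads behind the values were recovered, and the libraries held 36990091 to 44878446 reads on the genes of the table. Control replicate 1 lay further from the rest of its group than any other library, with a median absolute distance of 0.142 on the log2(RPKM + 1) scale against 0.0311 to 0.0627 for the other 7 libraries, and values without it are given where it matters. Of 20 markers of hepatocytes, 18 have no row, ALB, APOA1, APOB, AFP and HNF4A among them, which goes against the stated hepatic line. Of the remaining 2, TF, which encodes transferrin, averaged 0.192 ± 0.0188 RPKM (SD, n = 4) without SB and 0.379 ± 0.0748 RPKM (SD, n = 4) with SB. Of 10 leukocyte markers 3 have a row (summed RPKM 3.28 to 3.77 in the controls and 3.35 to 4.14 in SB-treated cells), and of 10 fibroblast and endothelial markers 4 have a row (6.63 to 8.97 and 6.62 to 6.98). By the test described below, TF and the leukocyte marker CD68 passed as higher, and COL3A1 passed as lower and LUM as higher. TF and LUM were above 1 CPM (reads scaled to library size alone), the authors' limit for keeping a gene, in 0 of 4 controls and in 2 and 4 SB-treated libraries, so each is in the table by way of the group where it is high. PTPRC, CD3E, CD14, DCN, PECAM1 and VWF have none. The part of such cells in the results was not tested.

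In the controls the receptors spanned from 25.6 ± 0.723 RPKM (SD, n = 4) for TNFRSF10B to 0.453 ± 0.132 RPKM (SD, n = 4) for TNFRSF25. The order from the highest level was TNFRSF10B, TNFRSF1A, TNFRSF12A, TNFRSF21, FAS, TNFRSF19, TNFRSF10D and TNFRSF25. Of neighbours in that order, TNFRSF1A and TNFRSF12A overlapped in their 4 values, while each other pair of neighbours was apart. In SB-treated cells TNFRSF12A stood first, and TNFRSF19 and FAS were the neighbours that overlapped. In a bulk sample, a lower number of cells that use a gene and less RNA per cell cannot be told apart.

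Each gene was tested between SB-treated and control cells in limma on the log2(RPKM + 1) scale, and p-values of all 14526 genes were adjusted together by the Benjamini-Hochberg method, with a threshold of 0.05. TNFRSF12A, TNFRSF10B, TNFRSF10D and TNFRSF25 (4 of 8) passed as higher, where 33.0% of all genes did, and FAS (1 of 8) passed as lower, where 32.6% of all genes did, while without the TMM library factors TNFRSF1A and TNFRSF19 also passed as higher and TNFRSF21 turned from below to above 0. The same 5 genes had groups without overlap, which 31.0% of all genes had in the higher and 30.5% in the lower direction. Leaving out the TMM factors moved the median log2 ratio of all genes from 0.004 to 0.109 and the calls over all genes from 4787 higher and 4740 lower to 6253 higher and 3357 lower. Nothing is read from these counts, since the receptors were listed with this comparison known. The log2 fold changes of the 8 genes ran from -0.29 for FAS to 1.81 for TNFRSF12A, with a median of 0.11 against 0.00 over all genes.

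**Figure D1:**
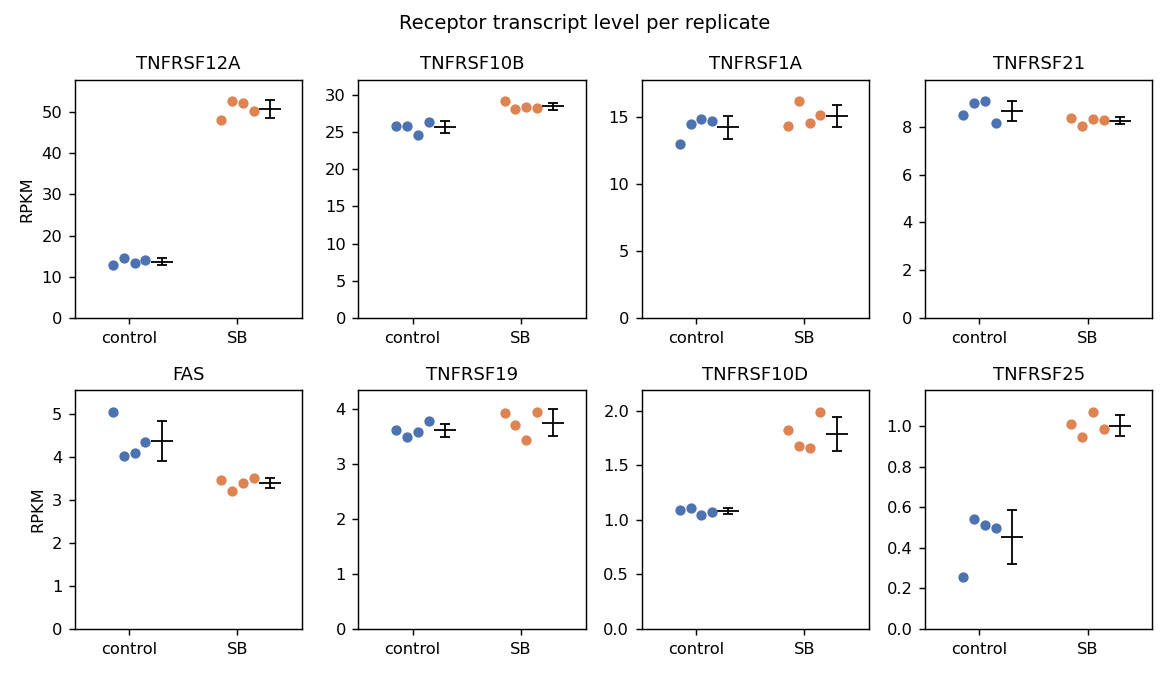
RPKM of the 8 receptors in each of 4 control (blue) and 4 SB-treated (orange) replicates, with the mean and SD as black bars. Each panel has its own linear axis from 0. TNFRSF12A is at 12.8 to 14.5 RPKM in the controls and 47.9 to 52.5 RPKM in SB-treated cells, FAS is lower in SB-treated cells, and the groups overlap for TNFRSF1A, TNFRSF19 and TNFRSF21.

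TNFRSF12A encodes the TWEAK receptor. Its gene is on the plus strand of chromosome 16, between positions 3020368 and 3022383 in hg38. In control replicates 1 to 4 it was at 12.8, 14.5, 13.3 and 14.2 RPKM. In SB-treated replicates 1 to 4 it was at 47.9, 52.5, 52.2 and 50.1 RPKM. Every SB-treated value was thus over 3 times every control value, and the replicates of a group lay close together. The mean was 3.70 times higher in SB-treated cells, and the log2 fold change came to 1.81 (standard error 0.048, 95% interval 1.71 to 1.92). These values rest on 489 to 600 reads in the controls and 1898 to 2406 reads in SB-treated cells over a counted length of 1032 bases. Among all genes, the mean level of TNFRSF12A moved from percentile 63.2 in the controls to percentile 92.1. It was at rank 1 of 14526 by log2 fold change on the log2(RPKM + 1) scale, which is how it was chosen, and this rank depends on the constant of 1 RPKM. With a constant of 0.1 it was at rank 12, and with voom, a model of the reads, at rank 35. Over the alternatives that were run its log2 fold change stayed between 1.79 and 1.92. The coefficient of variation between replicates was 5.72% in the controls, where counting error alone would give 4.23%.

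Of the 4 nearest genes with a row, 2 on each side of TNFRSF12A, none passed as higher. The nearest, HCFC1R1, lies 237 bases from the end of TNFRSF12A, a distance between annotated spans that does not take its strand into account. HCFC1R1 averaged 13.5 ± 1.71 RPKM (SD, n = 4) without and 11.4 ± 1.05 RPKM (SD, n = 4) with SB. Its log2 fold change was -0.23 (limma adjusted p = 0.0478). Its groups overlapped, and the adjusted p ranged up to 0.243 over the alternatives. THOC6, a gene of the mRNA export complex 1652 bases away, had a log2 fold change of 0.05 (limma adjusted p = 0.621), which was -0.05 without control replicate 1. On the other side, PKMYT1, an inhibitory kinase of CDK1, had -0.09 (limma adjusted p = 0.554), which became -0.24 (limma adjusted p = 0.0118) without control replicate 1 and 0.01 without the TMM factors. PAQR4 fell by 0.36 on the log2 scale (limma adjusted p = 0.00636). For all 8 receptors together, the nearest genes with a row on each side came to 29 genes other than the receptors themselves, of which 11 were higher, 8 were lower and 10 did not pass, beside 33.0% and 32.6% of all genes, with log2 fold changes from -0.60 to 0.62 and a median of 0.05. The number lower was 5 without SB-treated replicate 4 or control replicate 4, and 4 without the TMM factors.

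**Figure D2:**
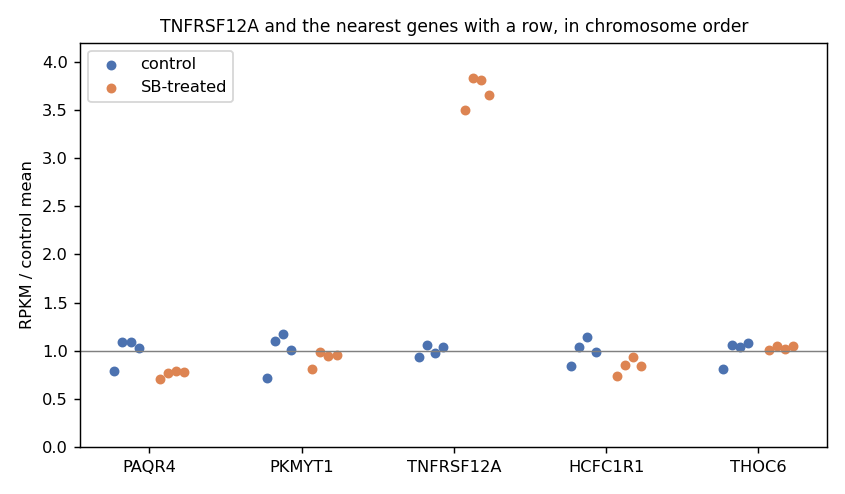
RPKM divided by the control mean of each gene (linear axis) for TNFRSF12A and the 4 nearest genes with a row, in chromosome order. Blue points are the 4 controls and orange points the 4 SB-treated replicates. TNFRSF12A has a mean 3.70 times the control mean, while the means of its neighbours lie between 0.760 and 1.03 times.

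The 5 genes with the profile most like that of TNFRSF12A over the 8 libraries, by Euclidean distance of log2(RPKM + 1) taken relative to the control mean, were C22orf23 (distance 0.32), ANKRD1 (0.38), CHPF2 (0.63), SHC2 (0.65) and SH2D3C (0.73). ANKRD1 encodes an ankyrin repeat protein known as a target of YAP, CHPF2 a chondroitin glucuronyltransferase, and SHC2 an adaptor of receptor tyrosine kinases. Within the receptor list, TNFRSF25 was the nearest at a distance of 2.70 and FAS the farthest at 4.22. ANKRD1 started from a lower level, 1.25 ± 0.226 RPKM (SD, n = 4) in the controls, and reached 6.71 ± 0.224 RPKM (SD, n = 4), which is 5.37 times the control mean against 3.70 times for TNFRSF12A. The likeness is a description of 8 libraries from 2 groups and takes in the size of the difference between them. Like the rank of TNFRSF12A, it depends on the constant of 1 RPKM. With a constant of 0.1 the log2 fold change was 1.88 for TNFRSF12A. In that setting it was 1.80 for C22orf23, 2.35 for ANKRD1, 1.70 for CHPF2, 1.65 for SHC2 and 2.07 for SH2D3C.

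The receptors of the death ligand TRAIL form a cluster on chromosome 8. TNFRSF10B (DR5) occupies positions 23020133 to 23069031 and TNFRSF10D positions 23135588 to 23164027, both on the minus strand. TNFRSF10B carries a death domain and passes on the apoptotic signal. TNFRSF10D has a truncated death domain and acts as a decoy. TNFRSF10B was the most abundant of the receptors in the controls, at 25.8, 25.8, 24.6 and 26.4 RPKM in replicates 1 to 4, and was at 29.1, 28.1, 28.4 and 28.2 RPKM in SB-treated replicates 1 to 4. The groups did not overlap, but the difference was small, 10.9% of the control mean and 0.14 on the log2 scale (standard error 0.034). TNFRSF10D was at 1.09, 1.11, 1.05 and 1.07 RPKM in the controls and at 1.83, 1.68, 1.66 and 1.99 RPKM in SB-treated cells. Its mean was 65.8% higher, and its log2 fold change was 0.42 (standard error 0.043), which the added constant of 1 RPKM makes smaller than the change of the RPKM itself. With a constant of 0.1 or with voom, the log2 fold change reached up to 0.73. The level of the decoy relative to the signalling receptor was 4.22 ± 0.107% (SD, n = 4) in the controls and 6.30 ± 0.532% (SD, n = 4) in SB-treated cells, with no overlap between groups. Genes of this cluster are similar in sequence, and how reads shared between them were counted is not given in the sources used here. TNFRSF10B also overlaps RHOBTB2 on the other strand, which was itself higher by 0.26 on the log2 scale (limma adjusted p = 0.00201), and the strand setting of the read counting is not given, so the part of shared reads was not tested.

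Of the other receptors with a death domain, FAS was lower, TNFRSF25 was higher, and TNFRSF1A and TNFRSF21 did not pass the threshold. FAS, the receptor of FAS ligand, is a plus-strand gene of chromosome 10 (88964050 to 89017059). Its transcript was at 5.05, 4.03, 4.10 and 4.36 RPKM in control replicates 1 to 4 and at 3.46, 3.22, 3.41 and 3.51 RPKM in SB-treated replicates 1 to 4. Control replicate 1 was the highest of the controls, but all 4 controls lay above all SB-treated values. The mean was lower by 0.29 on the log2 scale (-0.29, standard error 0.058), and over the fits that each left out a replicate the value ran from -0.32 to -0.23. FAS overlaps ACTA2, which lies on the minus strand, and ACTA2 was higher by 0.19 (limma adjusted p = 0.0251). As the strand setting of the counting is not given, the part of shared reads in either gene was not tested.

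TNFRSF25, the death receptor DR3 that binds TNFSF15, is a minus-strand gene of chromosome 1 (6460786 to 6466173) that overlaps ESPN. TNFRSF25 had the lowest level of the list, at 0.258, 0.544, 0.512 and 0.499 RPKM in the controls and 1.01, 0.946, 1.07 and 0.989 RPKM in SB-treated cells. The control values came from 21, 41, 35 and 39 reads and the SB-treated values from 74, 72, 87 and 88 reads. Its mean was 2.22 times higher in SB-treated cells, while its log2 fold change on the log2(RPKM + 1) scale was 0.47 (standard error 0.063) and reached up to 1.20 under the alternatives. Control replicate 1 was far below the other controls, and without it the log2 fold change was 0.40. TNFRSF25 also lies at the edge of the authors' filter, which asked for more than 1 CPM in 2 or more samples. Only 1 of its 4 control values was above that level, at 1.01 CPM, against all 4 SB-treated values, at 1.88 to 2.14 CPM, so it is in the table by way of the group where it is high. Each of the other 7 receptors was above 1 CPM in all 8 libraries.

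TNFRSF1A, the main receptor of TNF itself, is a minus-strand gene of chromosome 12 (6328771 to 6342076). It was at 13, 14.5, 14.9 and 14.7 RPKM in the controls and 14.4, 16.2, 14.6 and 15.2 RPKM in SB-treated cells. The groups overlapped, with a log2 fold change of 0.07 and a 95% interval from -0.04 to 0.19. TNFRSF21 (DR6), a minus-strand gene of chromosome 6 (47231532 to 47309905), was at 8.67 ± 0.431 RPKM (SD, n = 4) and 8.25 ± 0.140 RPKM (SD, n = 4). Its log2 fold change was -0.06 with an interval from -0.15 to 0.03, and it was 0.03 without the TMM factors. TNFRSF19 (TROY), a receptor without a death domain that is known from Wnt signalling and embryonic tissue, is a plus-strand gene of chromosome 13 (23570412 to 23676093). It was at 3.62 ± 0.118 RPKM (SD, n = 4) and 3.76 ± 0.239 RPKM (SD, n = 4), with a log2 fold change of 0.04 and an interval from -0.05 to 0.14. For these 3 receptors the intervals thus ran from -0.15 at the lowest to 0.19 at the highest on the log2 scale.

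The 8 receptors summed to 71.8 ± 1.45 RPKM (SD, n = 4) in the controls and 112 ± 1.88 RPKM (SD, n = 4) in SB-treated cells. Without TNFRSF12A the sums were 58.1 ± 0.694 and 61.7 ± 0.569 RPKM (SD, n = 4), so most of the difference in the sum was TNFRSF12A. Its share of the sum was 18.3%, 19.8%, 18.6% and 19.5% in control replicates 1 to 4 and 43.5%, 45.9%, 46.2% and 44.7% in SB-treated replicates 1 to 4. The share of TNFRSF10B was 35.7 ± 0.919% (SD, n = 4) and 25.3 ± 0.790% (SD, n = 4), although its own level was not lower. FAS made up 6.11 ± 0.746% (SD, n = 4) and 3.03 ± 0.154% (SD, n = 4).

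**Figure D3:**
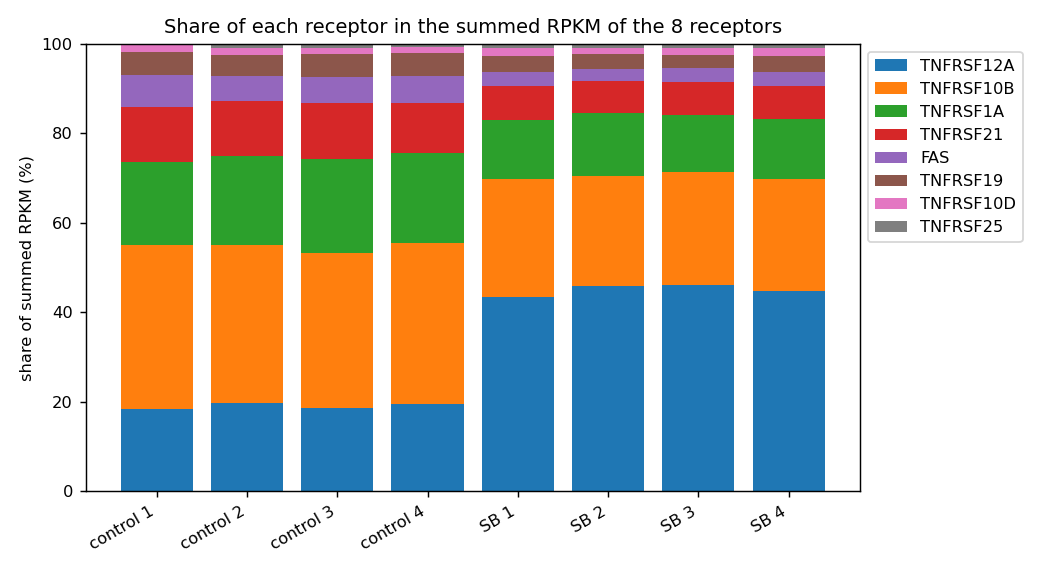
Share of each receptor in the summed RPKM of the 8 receptors (percent, linear axis), one bar for each of the 8 libraries. TNFRSF12A takes 18.3% to 19.8% in the controls and 43.5% to 46.2% in SB-treated replicates, where it is the largest part, and TNFRSF10B is the largest part in the controls.

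Promoter sequences from RefSeq (GRCh38.p14, the build line of hg38) were matched for 6 of the 10 listed genes and were not matched for TNFRSF12A, TNFRSF10A, TNFRSF10B and TNFRSF10D. Those of TNFRSF25, which was higher, FAS, which was lower, and TNFRSF1A, which did not pass the threshold, are shown because they are of unlike kind while the receptors all carry a death domain. Each has 300 bases around a transcription start, for FAS one that lies inside the annotated gene, and is written 5′ to 3′ on the strand of the gene. Capitals mark matches to the motifs named after the sequences.
TNFRSF25, chr1:6466124-6466423, minus strand: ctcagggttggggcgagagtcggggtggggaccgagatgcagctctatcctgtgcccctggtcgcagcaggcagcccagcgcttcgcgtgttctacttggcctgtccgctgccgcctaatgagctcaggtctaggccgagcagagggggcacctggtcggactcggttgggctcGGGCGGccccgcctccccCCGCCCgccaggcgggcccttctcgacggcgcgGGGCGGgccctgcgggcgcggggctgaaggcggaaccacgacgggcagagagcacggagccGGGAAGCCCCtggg
FAS, chr10:88990548-88990847, plus strand: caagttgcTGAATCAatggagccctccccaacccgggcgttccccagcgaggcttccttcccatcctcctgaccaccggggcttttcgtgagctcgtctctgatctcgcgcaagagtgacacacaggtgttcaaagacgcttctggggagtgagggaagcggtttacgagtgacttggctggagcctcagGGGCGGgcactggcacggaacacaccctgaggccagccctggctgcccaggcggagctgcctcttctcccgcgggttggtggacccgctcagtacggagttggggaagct
TNFRSF1A, chr12:6342027-6342326, minus strand: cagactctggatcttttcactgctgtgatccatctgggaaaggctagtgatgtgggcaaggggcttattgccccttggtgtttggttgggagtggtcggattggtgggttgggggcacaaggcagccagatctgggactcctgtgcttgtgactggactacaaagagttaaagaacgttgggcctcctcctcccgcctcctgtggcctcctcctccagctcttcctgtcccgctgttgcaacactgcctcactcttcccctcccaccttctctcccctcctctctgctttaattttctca

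The motifs searched on both strands of these promoters were the GC box GGGCGG, the TATA box TATAAA, the AP-1 site TGANTCA, the TEAD site GGAATG, the ETS core CCGGAAG, the SRF CArG box and the NF-kB site. The TNFRSF25 promoter held 3 GC boxes and 1 NF-kB match, which overlap no other motif here, at a GC content of 73.3%. The FAS promoter held 1 GC box and 1 AP-1 match at a GC content of 63.0%. The TNFRSF1A promoter held none of the motifs, and its CpG content was 0.174 of that given by its base composition, against 0.775 for TNFRSF25 and 0.605 for FAS. The promoter of TNFRSF21, which also carries a death domain and did not pass the threshold, is not shown. It held 1 GC box and none of the other motifs, at a GC content of 63.3% and a CpG content of 0.777. A link between promoter type and the change with SB was not tested. Among the promoters of 10651 genes with a row, 69.8% hold a GC box, 4.49% an AP-1 match and 6.54% an NF-kB match, and the median GC content was 65.3%. A TATA box was held by 5.44% of them, a TEAD match by 10.7%, an ETS core by 18.2% and a CArG box by 1.04%. A match describes these letters and not a bound site.

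Of 19 further genes of the receptor family, 8 have a row. Of these, 4 were higher in SB-treated cells, 2 were lower and 2 did not pass, where 33.0% of all genes were higher and 32.6% lower, with a median log2 fold change of 0.13 against 0.00 over all genes. RELT, a receptor that is known from haematopoietic tissue, rose from 5.24 ± 0.401 to 7.39 ± 0.281 RPKM (SD, n = 4), by 0.43 on the log2 scale (limma adjusted p = 6.18e-05). NGFR, the low-affinity receptor of neurotrophins, rose from 1.15 ± 0.128 to 1.77 ± 0.0722 RPKM (SD, n = 4), by 0.37 (limma adjusted p = 8.81e-05). TNFRSF9 (4-1BB), a costimulatory receptor of T cells, rose from 0.361 ± 0.0209 to 0.595 ± 0.0691 RPKM (SD, n = 4; limma adjusted p = 6.38e-04). EDA2R, a receptor of ectodysplasin, rose from 0.776 ± 0.106 to 0.983 ± 0.0339 RPKM (SD, n = 4; limma adjusted p = 0.0112). CD40, a costimulatory receptor, fell by 0.18 (limma adjusted p = 0.00901) with overlapping groups, and TNFRSF11A (RANK) by 0.12 (limma adjusted p = 0.0218), while TNFRSF8 and TNFRSF13C did not pass. TNFRSF8 was above 1 CPM in 0 of 4 controls and in 3 SB-treated libraries. It is thus in the table, and in the median of this list, by way of the group where it is high. The number lower was 1 when any of SB-treated replicates 1 and 2 or control replicates 2 and 4 was left out, and 0 without the TMM factors. With the replicate number fitted as a block it was 3.

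Of 18 ligands of the TNF superfamily, 6 have a row. TNFSF12 (TWEAK), the ligand of TNFRSF12A, has none, nor do TNF, FASLG, TNFSF10 (TRAIL), LTA and LTB. Of the 6, 4 were higher (33.0% of all genes), 0 were lower (32.6% of all genes) and 2 did not pass, with a median log2 fold change of 0.19 (0.00 over all genes). Of the 4 that were higher, 2 had groups without overlap, which 31.0% of all genes had in that direction. The number higher ran from 3 to 4 when each sample was left out in turn. None of the 6 reached an unadjusted p below 0.05 in the lower direction in limma or with voom. TNFSF4 (OX40 ligand) rose from 0.507 ± 0.0407 to 1.06 ± 0.0977 RPKM (SD, n = 4), by 0.45 on the log2 scale (limma adjusted p = 1.32e-05). EDA, the ligand of the ectodysplasin receptors, rose from 3.46 ± 0.0667 to 4.08 ± 0.178 RPKM (SD, n = 4). TNFSF15, the ligand of TNFRSF25, was at 0.150 ± 0.0321 and 0.173 ± 0.0324 RPKM (SD, n = 4) and did not pass. TNFSF15 was above 1 CPM in 1 of 4 controls and in 3 SB-treated libraries, so it is in the table by way of the SB-treated group.

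Inside the cell, 28 of 30 genes for adaptors, kinases and ubiquitin enzymes of the receptors have a row, of which 13 were higher (33.0% of all genes), 5 were lower (32.6% of all genes) and 10 did not pass, with a median log2 fold change of 0.12 (0.00 over all genes). TRAF3, an adaptor that restrains non-canonical NF-kB signalling, changed most. It was at 8.42, 8.57, 8.38 and 8.57 RPKM in control replicates 1 to 4 and at 14.8, 15.5, 15.3 and 14.8 RPKM in SB-treated replicates 1 to 4, a log2 fold change of 0.76 (limma adjusted p = 1.98e-07). Its groups stood far apart for their spread. RIPK1, the kinase of the TNFRSF1A complex, rose from 6.26 ± 0.489 to 8.80 ± 0.215 RPKM (SD, n = 4), by 0.43 (limma adjusted p = 4.50e-05). TRADD, the adaptor of TNFRSF1A and TNFRSF25, rose by 0.37 (limma adjusted p = 9.20e-04), and CYLD, which removes ubiquitin from these complexes, by 0.37 (limma adjusted p = 6.18e-05). TRAF1 rose from 1.01 ± 0.135 to 1.53 ± 0.0589 RPKM (SD, n = 4), by 0.34 (limma adjusted p = 2.41e-04). FADD, which links FAS and TNFRSF10B to caspase 8, fell by 0.23 (limma adjusted p = 0.00366), and TRAF5 by 0.16 (limma adjusted p = 0.0109), though TRAF5 did not pass without the TMM factors. TRAF2, which binds the tail of TNFRSF12A, had a log2 fold change of 0.09 (limma adjusted p = 0.251), and its value in control replicate 1, 13.1 RPKM, lay below those of the other controls, 15.8 to 16.4 RPKM. The number higher ran from 9 to 16 when each sample was left out in turn, and was 19 without the TMM factors. The number lower was 2 without the TMM factors.

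**Figure D4:**
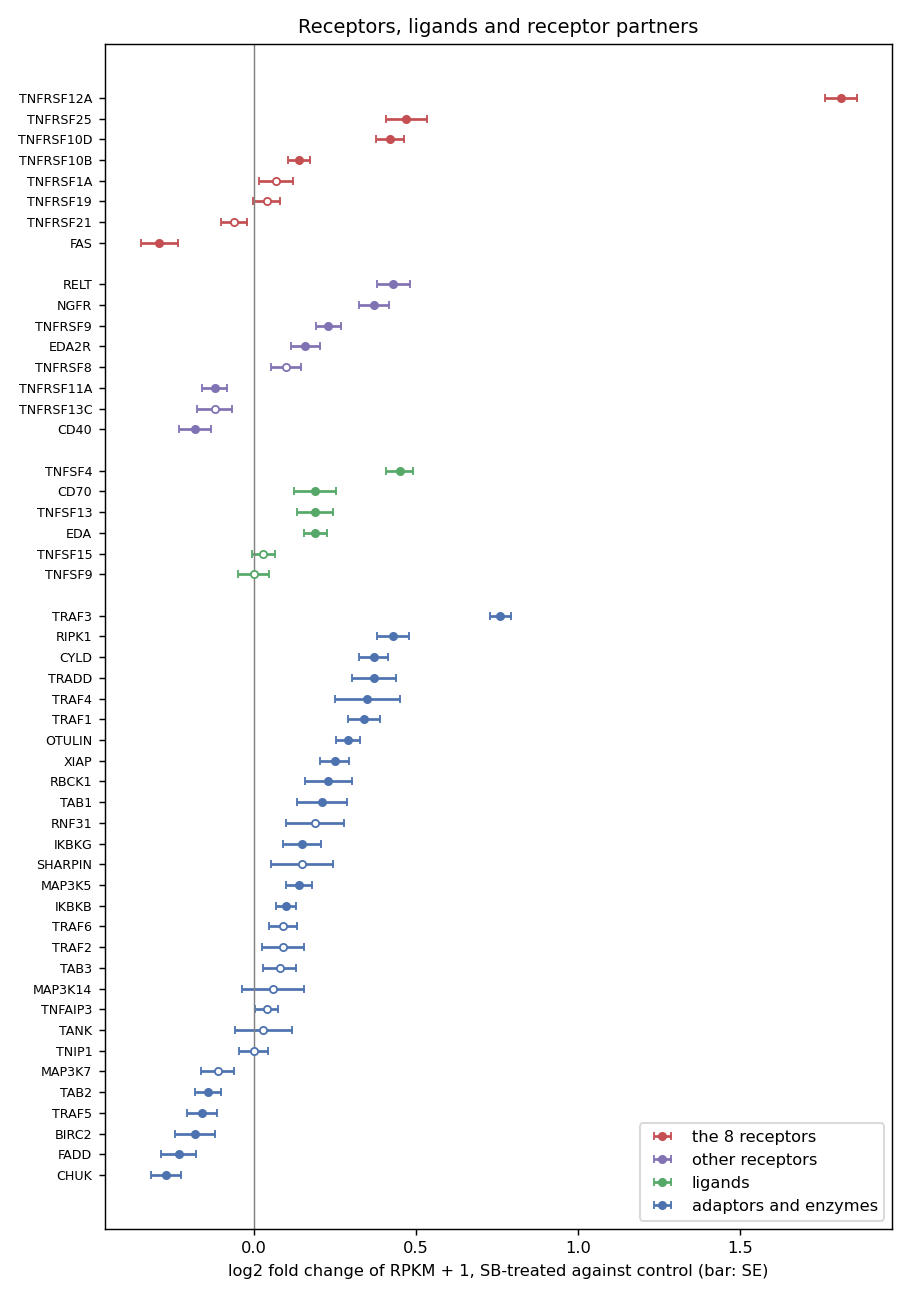
Log2 fold change of SB-treated against control cells on the log2(RPKM + 1) scale, with the standard error as bars (n = 4 per group), for the 8 receptors, 8 further receptors, 6 ligands and 28 adaptors and enzymes with a row. Filled points passed a limma adjusted p of 0.05 and open points did not. TNFRSF12A is at 1.81 and the next largest is TRAF3 at 0.76. Without the TMM factors TNFRSF21 and other values near 0 move to above 0.

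Of 16 genes of the death pathway, 15 have a row, of which 6 were higher, 5 were lower and 4 did not pass, beside 33.0% and 32.6% of all genes, and the median log2 fold change was 0.07. The mitochondrial proteins that are released in apoptosis were lower. CYCS, cytochrome c, fell by 0.60 (limma adjusted p = 3.25e-05) from 54.3 ± 5.78 to 35.3 ± 0.449 RPKM (SD, n = 4), and DIABLO by 0.53 (limma adjusted p = 1.08e-06) from 24.4 ± 0.395 to 16.7 ± 0.252 RPKM (SD, n = 4). CFLAR, the inhibitor of caspase 8 at the receptors, rose by 0.18 (limma adjusted p = 0.00110). CASP8 itself had a log2 fold change of -0.11 (limma adjusted p = 0.0918), and -0.16 (limma adjusted p = 0.00594) without control replicate 3.

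Of 24 NF-kB subunits, inhibitors and target genes, 16 have a row, of which 4 were higher, 4 were lower and 8 did not pass, beside 33.0% and 32.6% of all genes, and the median log2 fold change was 0.04. CXCL8, CXCL1, CCL2, IL6, ICAM1 and BIRC3 have no row. NFKBIA, an early target, was at 12.3 ± 0.563 and 11.5 ± 0.561 RPKM (SD, n = 4) with a log2 fold change of -0.08 (limma adjusted p = 0.136), which was 0.01 without the TMM factors. TNFAIP3 (A20), also an early target, had 0.04 (limma adjusted p = 0.364). IER3 fell from 1.39 ± 0.0866 to 0.603 ± 0.0359 RPKM (SD, n = 4), by 0.58 (limma adjusted p = 1.75e-06), and NFKBIB by 0.33 (limma adjusted p = 5.41e-04). The constant of 1 RPKM makes the change of IER3 smaller, and its log2 fold change was -1.08 with a constant of 0.1 and -1.20 with voom. SDC4, a syndecan, rose by 0.22 (limma adjusted p = 0.00534). TRAF1 and TNFAIP3 are on both this list and the list of adaptors. The number higher was 7 without the TMM factors.

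FAS and the TRAIL receptors are known targets of p53. Of 22 other p53 targets, 21 have a row, of which 8 were higher, 6 were lower and 7 did not pass, beside 33.0% and 32.6% of all genes, and the median log2 fold change was -0.07. CDKN1A (p21) rose from 7.67 ± 0.721 to 16.3 ± 0.617 RPKM (SD, n = 4), by 1.0 (limma adjusted p = 1.14e-06), and TP53INP1 by 0.50 (limma adjusted p = 3.62e-06). AEN, a nuclease, fell from 40.5 ± 3.57 to 26.4 ± 0.900 RPKM (SD, n = 4), by 0.60 (limma adjusted p = 2.43e-05), and DDB2, a DNA damage sensor, by 0.54 (limma adjusted p = 1.19e-05). Without control replicate 1, the number lower was 10. Of the receptors named here as p53 targets, TNFRSF10B and TNFRSF10D were above and FAS was below their controls. These receptors were listed with this comparison known, so nothing is read from their directions. The part of p53 was not tested.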

How the data were processed

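RNA from 8 samples, 4 control and 4 SB-treated replicates, was sequenced by the authors as 50 bp single reads from stranded total RNA libraries. The authors aligned reads to hg38 using TopHat 2.1.0 and counted them per gene with featureCounts 1.5.0. Genes above 1 CPM in at least 2 samples were kept, and libraries were scaled with TMM factors in edgeR 3.16.5. The deposited values used here are RPKM per gene and library. The deposited log2 fold change, mean log2 CPM, p-value and FDR are the authors' own comparison and were not used.

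Whole reads were recovered from the RPKM values for 100% of 14526 genes with a tolerance of 0.02 reads. Reads that share a factor in all libraries can come out too low by that factor. The counts cover counting error only. Because the values are not counts, the main test was limma 3.58.1 in R 4.3.3 (lmFit, eBayes) on log2(RPKM + 1), which understates the change of low genes. The test was run on simulated reads in which few genes changed, all by the same fold, and no library stood apart. In the data far more genes passed and control replicate 1 stood apart, so the simulation does not give the error of the test here. Beyond the filter made by the authors, none was applied. Intervals are 95% intervals from limma. Alternatives were a pseudocount of 0.1, a mean RPKM of at least 1, library sizes without TMM factors, voom on the recovered reads, a block for the replicate number, and fits without each sample in turn. Gene positions and promoters came from RefSeq and strands from GENCODE. The series calls the replicates biological, but whether they were separate cultures is not given in the sources used here, and p-values then measure the spread between these samples.

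The receptors and the gene lists were chosen with earlier results of these data known. Named from each list were the 4 genes with the largest absolute log2 fold change among those that passed with groups that did not overlap, besides partners of the receptors named by role and genes named for their place or profile. Examples of genes without a row were chosen after the table was seen, as were RHOBTB2, ACTA2, TNFSF15, CD40 and TNFRSF11A. A few genes that the rule names are not reported here.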

Additional observations from a re-analysis of the deposited data

Results flagged for a closer look

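Among the receptors, TNFRSF25 in the controls had 1 replicate far from the others. Replicate 1 was lowest, and its gap to the nearest other control was 0.854 of the range of log2(RPKM + 1). The same measure, for replicate 1 as the lowest control, was 0.854 for RELT, 0.873 for THOC6 and 0.836 for TRAF2. For CFLAR it was 0.935 with control replicate 2 lowest and 0.962 with SB-treated replicate 3 highest, and for IER3 it was 0.926 with SB-treated replicate 1 lowest. All of these exceed what Dixon's test allows for a group of 4. Among the 88 groups looked at, 7 did so, against about 4.4 by chance, and 4 of the 7 were control replicate 1. The cause was not tested.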

How the results depend on the processing

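The signs and calls of TNFRSF12A, TNFRSF10B, TNFRSF10D and FAS did not change in any alternative run, nor did those of TNFRSF25 wherever it was tested. Without the TMM factors, TNFRSF1A (0.17) and TNFRSF19 (0.13) passed as higher, and TNFRSF21 turned to 0.03, NFKBIA to 0.01 and PKMYT1 to 0.01, against a shift of all genes from 0.004 to 0.109. In the same setting the number called lower was 0 for the further receptors, 2 for the adaptors and 4 for the flanking genes, and the number called higher was 7 for the NF-kB genes. With a mean RPKM of at least 1, the further receptors called higher were 2, since low genes were not tested. THOC6 turned to -0.05 without control replicate 1 and reached 0.09 with another replicate left out. When each sample was left out in turn, the number called lower ranged from 1 to 2 for the further receptors, from 5 to 11 for the flanking genes and from 6 to 10 for the p53 targets. Fitting the replicate number as a block gave 4885 higher and 4894 lower calls, the receptors were again 4 and 1, and the further receptors called lower were 3. Same-numbered replicates deviated from their groups with correlations of 0.380, 0.327, 0.173 and -0.160 for replicates 1 to 4. The mean over the other pairs was -0.0541, and 4 of 8 samples were closest to their own number. As replicate 4 did not follow, the numbers were not taken to pair the samples in the main test. A partial pairing is not excluded. No other count of a list moved by over 1.5 times. At 21 to 41 reads in the controls, TNFRSF25 is limited by depth.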
